A study of Mus musculus with 6 samples.

Results

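AP-1 (activator protein 1) and early response genes were followed in the mouse retina after light damage and minocycline treatment. The members were the rows of the gene count table whose symbol is Fos, Fosl1, Fosl2, Jun, Junb, Atf3, Egr1, Egr2, Cebpb or Myc, and all 10 were found among 23420 genes. RNA sequencing covered 6 retina libraries in 3 groups of 2 libraries each. Control mice were labelled as untreated. Light-exposed mice received 10000 lux for 1 h and were analysed 4 days later. The third group received the same light and 45 mg/kg minocycline, a tetracycline antibiotic that dampens microglial activation, by daily intraperitoneal injection for 4 days, with analysis at the same time. The labels give the strain CD1 for every library and no age, whereas the study describes BALB/cJ mice, another light intensity and a longer course of minocycline injections that began before the light. For the RNA-seq groups, the labels name no injection of solvent into mice that did not receive minocycline. Each library is described as a biological replicate of total retinal RNA, so fewer cells of a type and less RNA per cell cannot be told apart.

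AP-1 is a dimer of basic leucine zipper proteins, mostly one partner of the Fos family and one of the Jun family, and Atf3 can join it as a further zipper partner. Fos, Jun, Egr1 and their relatives are transcribed within minutes of growth factor, calcium or stress signals, because kinases switch on factors that already sit at their promoters, and their short-lived mRNAs then decay. Cebpb and Myc encode transcription factors that respond to cytokines and growth signals. In the retina such genes are known to respond to light, synaptic activity and injury, and Fos is known for its part in light-induced photoreceptor death.

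Promoter sequences show some of the signal-responsive elements that these genes carry. RefSeq promoters of the GRCm38.p6 build were matched for 7 of the 10 members. The 250 bases before the annotated start are printed for Fos, Jun, Junb and Atf3, because these 4 genes were low together in the light-exposed libraries, as described further on. They are written 5′ to 3′ on the strand of the gene, with the searched motifs in capitals. The regions are chr12:85473640-85473889 on the plus strand for Fos, chr4:95052223-95052472 on the minus strand for Jun, chr8:84978749-84978998 on the minus strand for Junb, and chr1:191183334-191183583 on the minus strand for Atf3. The last of these lies inside the annotated Atf3 gene, before the start of a shorter transcript.
Fos: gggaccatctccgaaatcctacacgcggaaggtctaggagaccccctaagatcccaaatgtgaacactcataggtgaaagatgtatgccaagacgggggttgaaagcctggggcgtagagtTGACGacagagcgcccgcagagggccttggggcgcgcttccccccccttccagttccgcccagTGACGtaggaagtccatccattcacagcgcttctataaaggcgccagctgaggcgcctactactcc
Jun: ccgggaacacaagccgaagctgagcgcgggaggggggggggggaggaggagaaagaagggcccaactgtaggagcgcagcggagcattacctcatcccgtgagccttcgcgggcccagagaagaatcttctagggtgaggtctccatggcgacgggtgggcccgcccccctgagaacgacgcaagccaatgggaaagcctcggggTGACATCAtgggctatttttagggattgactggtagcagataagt
Junb: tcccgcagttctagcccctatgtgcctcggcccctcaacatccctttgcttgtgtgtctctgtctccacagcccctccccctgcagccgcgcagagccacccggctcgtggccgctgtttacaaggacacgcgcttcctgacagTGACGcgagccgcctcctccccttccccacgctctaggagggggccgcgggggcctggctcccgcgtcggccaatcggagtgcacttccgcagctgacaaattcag
Atf3: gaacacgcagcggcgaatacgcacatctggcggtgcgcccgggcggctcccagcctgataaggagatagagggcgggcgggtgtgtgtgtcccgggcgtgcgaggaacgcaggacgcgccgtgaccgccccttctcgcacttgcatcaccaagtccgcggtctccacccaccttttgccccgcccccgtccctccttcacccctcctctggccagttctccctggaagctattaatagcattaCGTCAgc

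Capitals in Fos and Junb mark TGACG, the core of the cyclic AMP response element (CRE) that CREB and ATF proteins bind. In Atf3 the capitals CGTCA are the same core read on the opposite strand. In Jun they mark TGACATCA, a variant AP-1 site. Fos held the CRE core at -129 to -125 and -66 to -62 relative to the start, Junb at -106 to -102, and Atf3 at -7 to -3. Searched on both strands, the CRE core was present in 17.8% of 32851 promoter windows of the same length, and the variant AP-1 site, found in Jun at -45 to -38, in 2.93%. The palindromic CRE TGACGTCA, which contains the core, stood in 1.55% of windows, the AP-1 site TGANTCA in 6.75%, and the STAT site TTCNNNGAA in 7.02%, and none of these was found in a member's window. Among the promoters not printed, Fosl2 held an EGR site (GCGGGGGCG, 2.57% of windows) at -79 to -71, and Cebpb held the CRE core 3 times. Egr2 has 5 annotated starts, of which 4 carried a CArG box, the element bound by serum response factor (1.47% of windows). The windows of start sites 3 to 5 overlap and hold the same box and the same CRE cores. A match is a description of letters only.

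**Figure D1:**
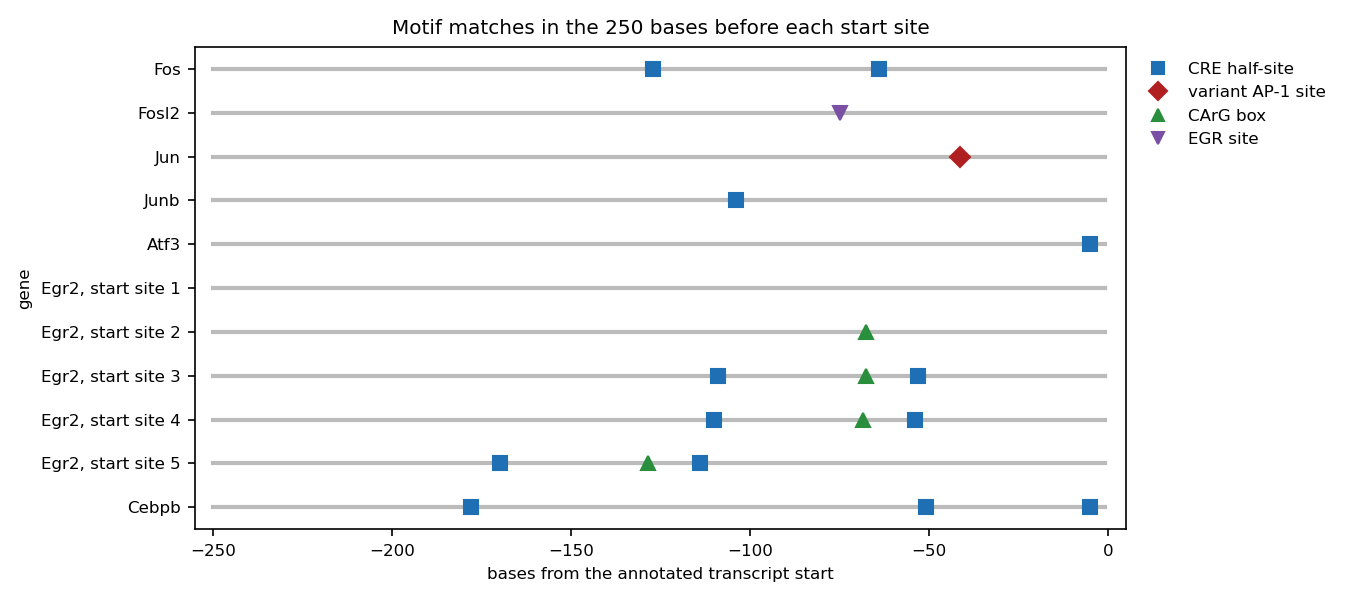
Motif matches in the 250 bases before each annotated start, with distance from the start in bases on the horizontal axis and 1 line per start site of the 7 matched members. Squares mark the CRE core TGACG (labelled as CRE half-site), the diamond the variant AP-1 site, upward triangles the CArG box and the downward triangle the EGR site. Fos, Junb, Atf3 and Cebpb carry the CRE core, as do Egr2 start sites 3 to 5, whose windows overlap and hold the same matches.

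Total counts ranged from 15205930 to 22856922 per library, so that 3 counts correspond to 0.131 to 0.213 CPM, the depth-normalized unit used here after TMM scaling. Rod markers were abundant in every library, as the tissue label requires. Libraries of the same group stood apart in several ways. Control 1 held 77778 counts of Xist and 11 counts of 4 Y-linked genes, whereas the other 5 libraries held 25 to 188 Xist counts and 6532 to 12858 Y-linked counts. Summed markers of corneal epithelium, a tissue outside the retina, were 198 and 282 CPM in minocycline A and B against 2.68 to 16.1 CPM elsewhere, and all 10 of its markers had counts with minocycline. Light-exposed 1 held 175 CPM of lens markers against 0.995 to 19.1 CPM in the other libraries.

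Measured per kilobase of exon, the control retina contained most Fos mRNA among the members (98.8 ± 76.9 CPM per kb, SD, n = 2). Egr1 followed at 61.3 ± 41.8, Junb at 52.8 ± 33.6, Jun at 28.5 ± 20.3 and Atf3 at 17.8 ± 6.67 CPM per kb. These neighbouring levels overlapped within 1 SD. Fosl2 and Cebpb stood at 4.37 ± 1.74 and 4.34 ± 2.89 CPM per kb. At the low end, Egr2 (0.689 ± 0.564), Fosl1 (0.452 ± 0.243) and Myc (0.0912 ± 0.0190 CPM per kb) were scarcely expressed in control retinas.

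Among the Fos family, Fos encodes the founding AP-1 subunit that pairs with Jun proteins. Its level was 360 and 104 CPM in control 1 and 2, 35.1 and 90.6 CPM in light-exposed 1 and 2, and 101 and 190 CPM in minocycline A and B. Both light-exposed libraries lay below every other library, although control 2 and light-exposed 2 lay close together. The log2 fold change of Fos was -1.88 ± 1.02 (standard error) with light against control, which did not pass the threshold of 0.05 (edgeR quasi-likelihood test, Benjamini-Hochberg adjusted p = 0.381). With 1 library left out it ranged from -2.73 without light-exposed 2 to -0.74 without control 1. Between minocycline and light it was 1.23 ± 0.53 on the log2 scale (adjusted p = 0.270).

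Fosl1 encodes Fra-1, a Fos relative that accumulates in invasive and inflamed cells and has no transactivation domain of its own. It was scarce, with 8 and 18 counts in control retinas, 29 and 82 after light, and 10 and 15 with minocycline. On the CPM scale this was 0.569 and 1.27, 1.69 and 3.89, and 0.435 and 0.795. The light-exposed libraries lay above all others. The log2 fold change was 1.61 ± 0.55 with light against control (adjusted p = 0.0829) and -2.18 ± 0.57 with minocycline against light (adjusted p = 0.0995), and neither passed the threshold. With light it ranged from 0.88 without light-exposed 2 to 2.28 without control 2. Summed over libraries, counts gave a ratio of 3.16 for light against control with an exact interval of 2.05 to 5.05 at 95% confidence, which covers counting error only. Fosl1 overlaps Ccdc85b on the opposite strand over 2767 bases, and the use of strand in counting is not given in the sources used here.

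Fosl2 encodes Fra-2, the more evenly expressed relative of Fosl1. It was measured at 30.4 and 54.2 CPM in the controls, 33.1 and 59.0 CPM after light, and 35.2 and 69.8 CPM with minocycline. In each group 1 library was low and 1 was high, and all 3 groups overlapped. The log2 fold change was 0.13 ± 0.41 with light (adjusted p = 0.867) and 0.21 ± 0.42 with minocycline against light (adjusted p = 0.830).

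**Figure D2:**
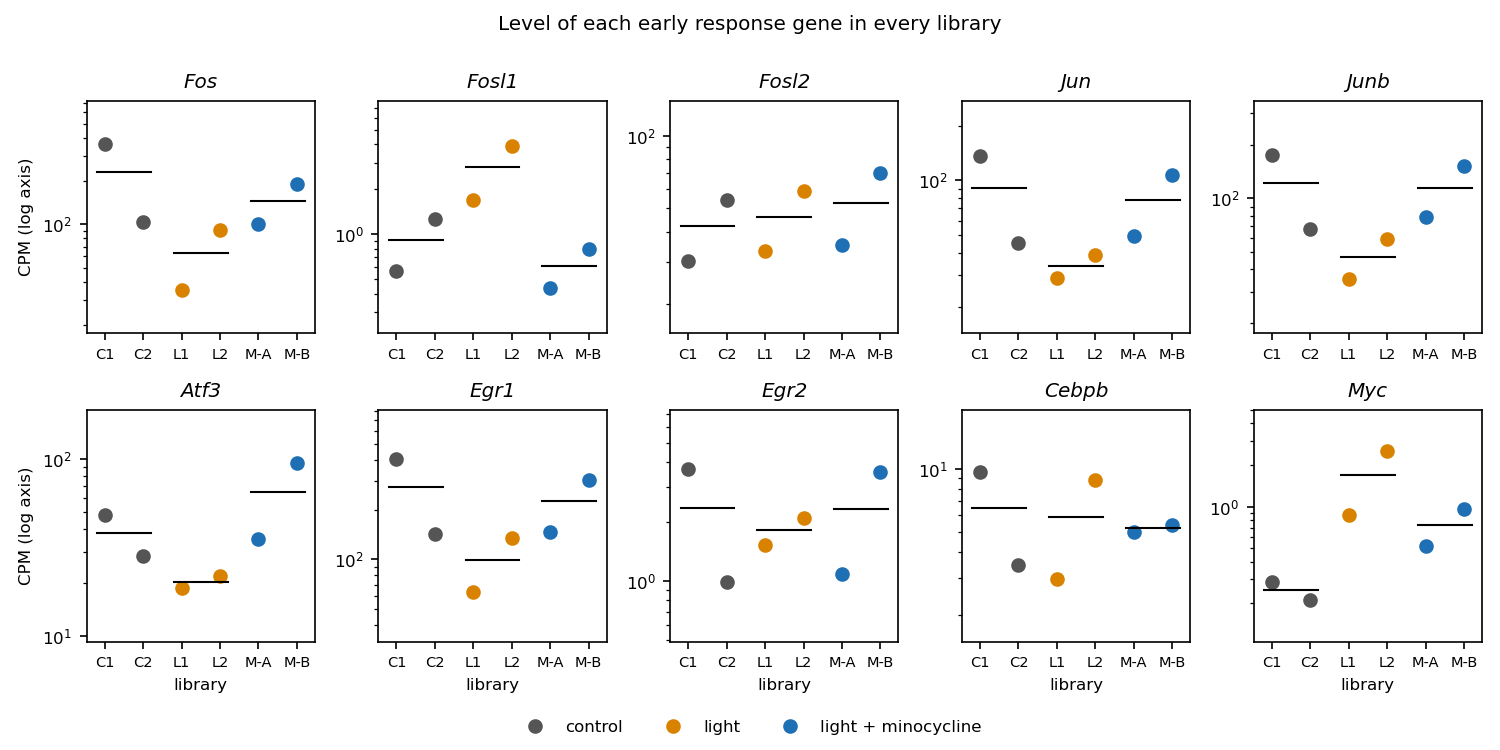
Level of each member in every library, as CPM on a logarithmic axis whose range differs between panels, with a horizontal line at the mean of the 2 libraries of a group. C1 and C2 are controls, L1 and L2 light-exposed retinas, and M-A and M-B light-exposed retinas with minocycline. Fos, Jun, Junb, Atf3 and Egr1 are lowest in L1 and L2, while Fosl1 is highest there.

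Jun and Junb encode the Jun partners of the dimer, of which Jun is the strong activator and JunB the weaker partner that can restrain it. Jun was at 137 and 45.2 CPM in control 1 and 2, 28.9 and 38.7 CPM after light, and 49.2 and 107 CPM in minocycline A and B. Control 2 stood only slightly above light-exposed 2, and control 1 was the highest library. With light the log2 fold change of Jun was -1.42 ± 0.68 (adjusted p = 0.311), in a range of -2.02 without control 2 to -0.42 without control 1. The minocycline libraries gave 1.23 ± 0.40 against light (adjusted p = 0.182). Jun overlaps the antisense transcript Junos on the opposite strand, over 689 bases.

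Junb showed the same order of libraries. Its level was 176 and 67.0 CPM in the controls, 35.1 and 59.0 CPM in the light-exposed libraries, and 78.6 and 152 CPM with minocycline. The light-exposed libraries lay below all 4 others. For Junb the log2 fold change with light was -1.36 ± 0.66 (adjusted p = 0.312), in a range of -1.91 without control 2 to -0.51 without control 1. Minocycline against light gave 1.31 ± 0.41 (adjusted p = 0.164), a value that did not pass the test either. Junb overlaps the counted gene Prdx2 on the opposite strand over 351 bases.

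Atf3 encodes a stress-induced zipper protein that dimerises with Jun proteins and often represses, and it is known as a marker of neuronal injury. Atf3 fell with light exposure. Its level was 48.5 and 28.2 CPM in the controls, 18.7 and 21.8 CPM after light, and 35.3 and 94.6 CPM in minocycline A and B. The light-exposed replicates were close to each other and below both other groups, while the minocycline replicates were far apart. The group means were 38.3 ± 14.4, 20.2 ± 2.19 and 65.0 ± 41.9 CPM (SD, n = 2). The log2 fold change of Atf3 with light was -0.91 ± 0.25 (adjusted p = 0.0479), just past the threshold. The call was lost when any single library was left out, with log2 fold changes of -0.48 without control 1, -1.27 without control 2, -0.82 without light-exposed 1 and -1.04 without light-exposed 2. Over all genes, these fits made 2, 6, 1424 and 107 calls in place of 1624. The call was also lost with DESeq2 size factors, with total library size and with all 6 libraries in one fit (adjusted p = 0.315), in a range of 0.00117 to 0.699 over all settings tried. Against light, minocycline gave a log2 fold change of 1.70 ± 0.48 (adjusted p = 0.143), and without minocycline A it was 2.25 (adjusted p = 0.00771), past the threshold, in a range of 0.000330 to 0.675 over all settings. Without minocycline B it was 0.81 (adjusted p = 0.281). The annotated RNA gene Gm24748, which is not in the count table, overlaps Atf3 on the opposite strand over 108 bases.

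The zinc finger gene Egr1 is switched on by neuronal activity and mitogens, and its relative Egr2 is known from nerve myelination and immune cells. Egr1 was at 407 and 143 CPM in the controls, 63.2 and 135 CPM after light, and 147 and 305 CPM with minocycline. Control 2, light-exposed 2 and minocycline A lay within a narrow range, yet the light-exposed libraries remained the lowest. With light its log2 fold change was -1.47 ± 0.78 (adjusted p = 0.353), in a range of -2.12 without light-exposed 2 to -0.53 without control 1. For minocycline against light it was 1.21 ± 0.50 (adjusted p = 0.251).

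Egr2 was low, with 52 and 14 counts in the controls, 26 and 44 after light and 25 and 67 with minocycline. In CPM this was 3.70 and 0.986, 1.52 and 2.09, and 1.09 and 3.55. The light-exposed values lay between the control values, and all groups overlapped. Its log2 fold change was -0.36 ± 0.56 with light (adjusted p = 0.710) and 0.37 ± 0.59 with minocycline against light (adjusted p = 0.772).

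Cebpb encodes C/EBPβ, a zipper protein of acute phase and macrophage genes outside the AP-1 families. It was measured at 9.60 and 3.45 CPM in control 1 and 2, 2.98 and 8.83 CPM in light-exposed 1 and 2, and 5.01 and 5.40 CPM with minocycline. Replicates of the control and light-exposed groups differed more than the group means did. The log2 fold change was -0.13 ± 0.69 with light (adjusted p = 0.923) and -0.17 ± 0.50 with minocycline against light (adjusted p = 0.882). Cebpb overlaps the counted gene Tmem189 on the opposite strand over 908 bases.

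Myc, which drives growth and proliferation through dimers with MAX, rose with light exposure from a level close to the detection limit. Control retinas gave 4 and 3 counts, light-exposed retinas 15 and 53, and the minocycline libraries gave 12 and 18. On the CPM scale the controls were at 0.284 and 0.211, the light-exposed libraries at 0.876 and 2.52, and the minocycline libraries at 0.522 and 0.954. Both light-exposed libraries exceeded both controls, and minocycline B lay between the light-exposed replicates. The log2 fold change of Myc with light was 2.76 ± 0.67 (adjusted p = 0.0281). Myc passed the filter on low counts through the light-exposed libraries alone, since neither control reached the 0.642 CPM cutoff. The ratio of the summed counts, 68 against 7, was 7.19 with an exact 95% interval of 3.31 to 18.6 for counting error. The call was lost without light-exposed 2, where the log2 fold change was 1.79, and without control 1 (2.97) or control 2 (2.56), and DESeq2 gave an adjusted p of 0.0576 in a range of 0.000935 to 0.446 over all settings. Minocycline against light gave a log2 fold change of -1.21 ± 0.61 (adjusted p = 0.315), which was -0.27 without light-exposed 2 and as low as -1.77 without light-exposed 1.

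In all, 1 of the 10 members was called higher (Myc) and 1 lower (Atf3) with light against control. Among all 14349 genes tested, 7.52% were called higher and 3.8% lower, and Myc passed the filter through the light-exposed libraries alone. Of the 9 members that passed in both groups, 0 were called higher and 1 lower. Values of the 2 groups did not overlap for 7 members, 2 higher and 5 lower in the light-exposed libraries, against 30.6% and 30.3% of all genes tested. At an unadjusted p under 0.05, 2 members were higher and 1 lower, beside 16.5% and 12.4% of all genes, and DESeq2 called Atf3 lower and none higher, beside 5.25% and 7.68%. The median log2 fold change of the 10 members was -0.64, beside 0.00 over all genes tested. Scaling by total library size moved the median of all genes to 0.24 and left Fos, Jun, Junb, Atf3 and Egr1 below 0.

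With minocycline against light, none of the 10 members was called in either direction by edgeR, where 0.0136% of 14750 genes were called higher and 0.0407% lower. At an unadjusted p under 0.05 there were 3 members higher (Atf3, Jun and Junb) and 1 lower (Fosl1), against 9.04% and 12.1% of all genes. DESeq2 called Atf3, Jun and Junb higher (3 of 10) and none lower, beside 3.16% and 5.01% of all genes. Fos, Jun, Junb, Atf3 and Egr1 did not overlap between the groups and were higher with minocycline (26.1% of all genes), and Fosl1 was lower (28.7%). The members' median log2 fold change was 0.79. With 1 library left out, the log2 fold change ranged from 0.69 to 2.05 for Fos, 0.54 to 1.69 for Jun, 0.74 to 1.72 for Junb, 0.81 to 2.25 for Atf3 and 0.58 to 1.84 for Egr1. The lowest of these values came without minocycline B for Jun, Junb, Atf3 and Egr1, and without light-exposed 1 for Fos. For Fosl1 it ranged from -2.67 without minocycline B to -1.47 without light-exposed 2. Without light-exposed 1, Fosl1 was called lower (-2.66, adjusted p = 0.0289, in a range of 0.0289 to 0.589 over all settings). This comparison and that of light against control share the light-exposed libraries.

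With minocycline against control, 9 members were tested, since 1 library alone carried Myc above the filter. None was called, against 0.162% of 14181 genes called higher and 0% called lower, and none of the 9 had an unadjusted p under 0.05 (5.39% of all genes higher and 1.62% lower). DESeq2 called none of the members, beside 1.06% of all genes higher and 0.0261% lower. The largest log2 fold change was that of Atf3, 0.80 ± 0.58 (adjusted p = 0.752). For Fos it was -0.63 ± 0.71, for Jun -0.18 ± 0.70, for Junb -0.03 ± 0.59 and for Egr1 -0.24 ± 0.65, and all of the 9 overlapped between the groups, whereas 15.9% of all genes lay higher and 24% lower without overlap. Myc counts of 30 against 7 gave a ratio of 2.89 with an exact 95% interval of 1.25 to 7.81 for counting error.

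**Figure D3:**
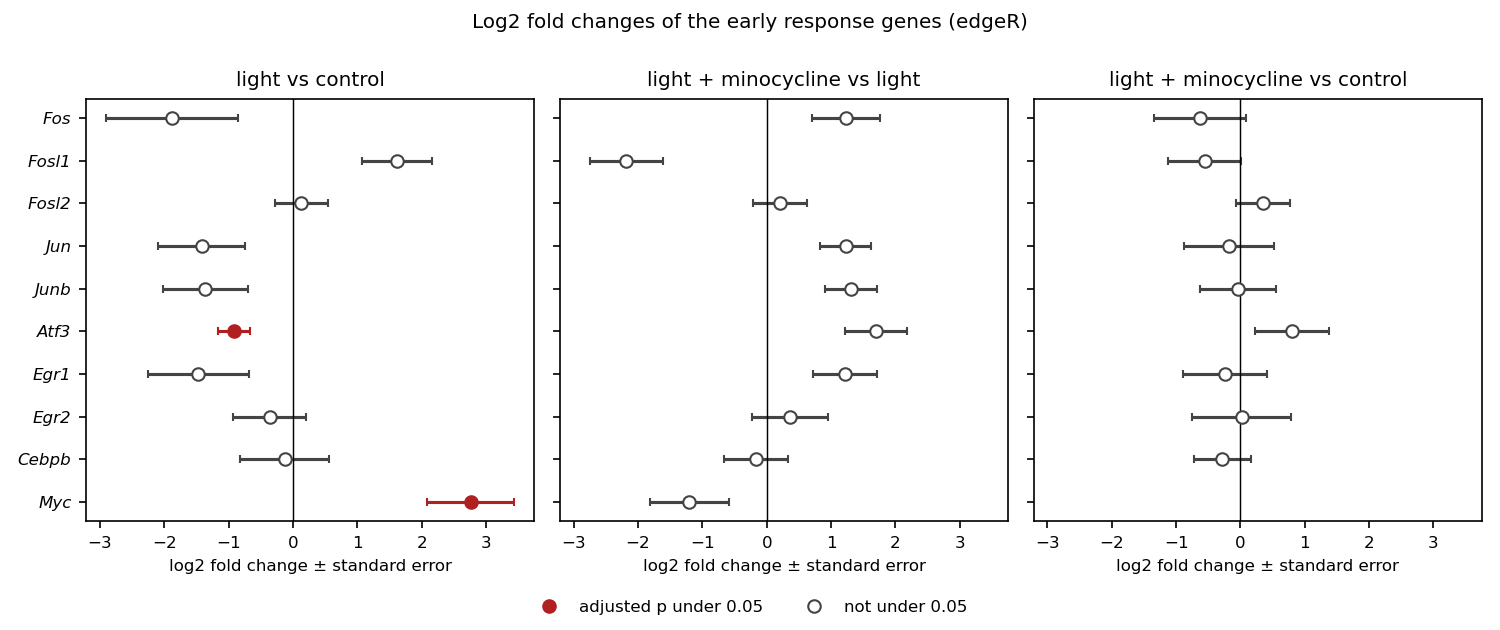
Log2 fold change of each member in the 3 comparisons, with bars of 1 standard error, from edgeR. Filled points mark an adjusted p under 0.05, which Atf3 (-0.91) and Myc (2.76) reached with light against control, and Myc was not tested with minocycline against control.

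Differences between replicates varied among the members. In the controls the log2 ratio between replicates, computed with 0.5 counts added, was 1.87 for Egr2, which 0.85% of tested genes exceeded, and 1.79 for Fos, which 0.962% exceeded. It was 1.59 for Jun, 1.51 for Egr1, 1.47 for Cebpb, 1.40 for Junb, 1.11 for Fosl1, 0.83 for Fosl2 and 0.78 for Atf3, beside a median of 0.25 over tested genes. For Myc it was 0.38, which 31.1% of tested genes exceeded. In the light-exposed group Cebpb (1.56), Myc (1.49) and Fos (1.37) differed most, each exceeded by 1.53% to 2.25% of tested genes, while Jun (0.42) was exceeded by 20.2% and Atf3 (0.22) by 42.1%. With minocycline, Egr2 (1.69), Atf3 (1.42) and Jun (1.12) differed most, exceeded by 1.09% to 4.34% of tested genes, while Cebpb (0.11) was exceeded by 72.7%.

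The replicates also differed in shared directions, which were read from the members' own values and are given as a description. Jun, Junb and Egr1 had exactly the same order over the libraries, from control 1 down through minocycline B, minocycline A, control 2 and light-exposed 2 to light-exposed 1. Of 14789 genes tested in any comparison, 45 (0.304%) had this order, and 3 of 44 other early response genes did, namely Ier2, Dusp1 and, named after its values were seen, Btg2. Control 1 was above control 2, light-exposed 2 above light-exposed 1 and minocycline B above minocycline A in 8 of 10 members, against 9.07% of all genes. The exceptions were Fosl1 and Fosl2, which were higher in control 2. Of the other early response genes, 23 of 44 shared these 3 directions. The summed level of the 10 members was 1173 and 447 CPM in the controls, 221 and 421 CPM after light, and 454 and 929 CPM with minocycline.

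**Figure D4:**
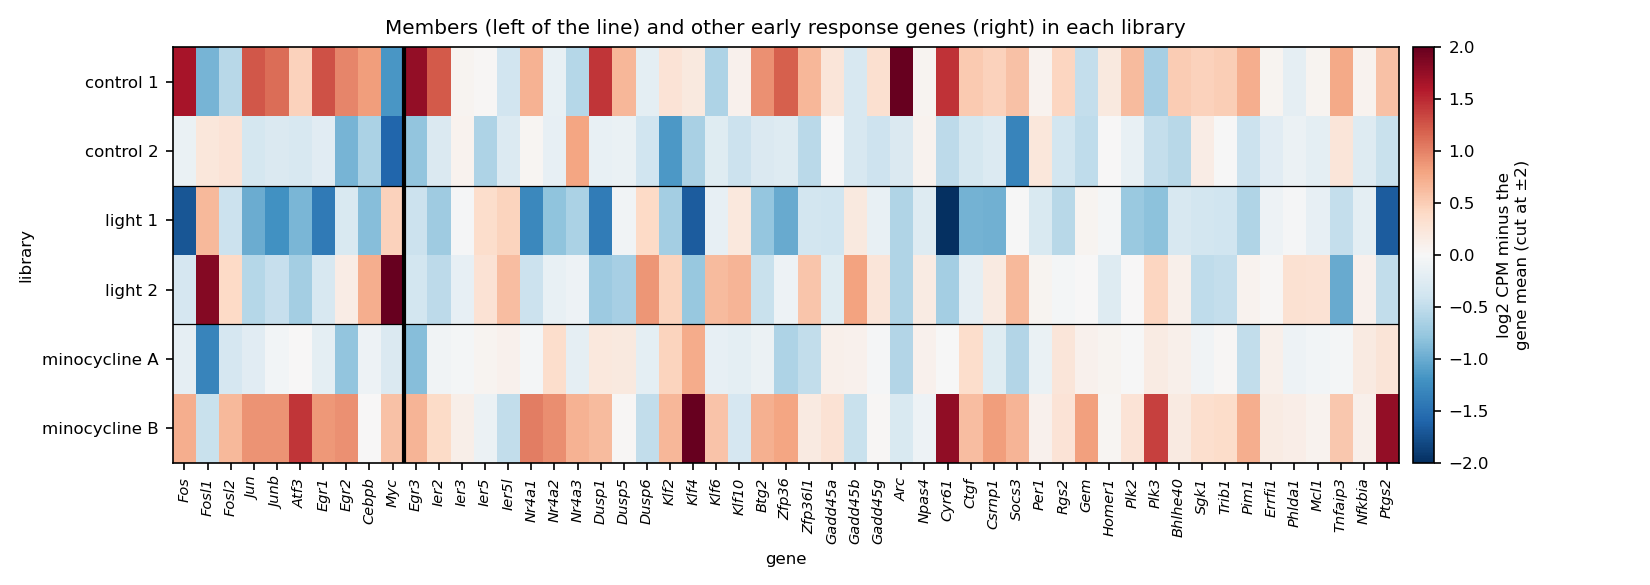
Log2 CPM of each gene minus its mean over the 6 libraries, with genes in columns, libraries in rows and colours limited to 2 units either way. The 10 members stand left of the thick line and 43 other early response genes with a mean of at least 10 counts stand right of it. Control 1 and minocycline B are red for most early response genes, and light-exposed 1 is blue.

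Marker genes of several cell types also differed between the libraries. Rod markers summed to 105500 and 83850 CPM in the controls, 62190 and 44030 CPM after light, and 89450 and 97330 CPM with minocycline. Like the summed level of the members they were lowest in the light-exposed group, but within it light-exposed 2 was the lower library, where the members' sum was higher. Microglia and macrophage markers (13 genes) were at 38.5 and 48.0, 351 and 1128, and 84.5 and 37.6 CPM, and reactive glia markers at 208 and 215, 688 and 1006, and 319 and 236 CPM. Like Fosl1 and Myc, both lists were highest in light-exposed 2. Minocycline B, where Atf3 and Fosl2 were highest, also held most pigment cell markers (1400 CPM, against 310 in minocycline A and 16.6 to 75.0 in the controls and light-exposed libraries) and smooth muscle markers (398 CPM, against 34.3 to 122). Stromal fibroblast markers were at 158 CPM there, against 15.7 to 45.4 CPM. Müller cell markers ranged from 1931 to 4690 CPM, ganglion cell markers from 169 to 520 CPM and endothelial markers from 129 to 278 CPM, with no marker of these lists at 0 in a whole group. The part of these cells and of the Xist difference in the members' values was not tested.

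**Figure D5:**
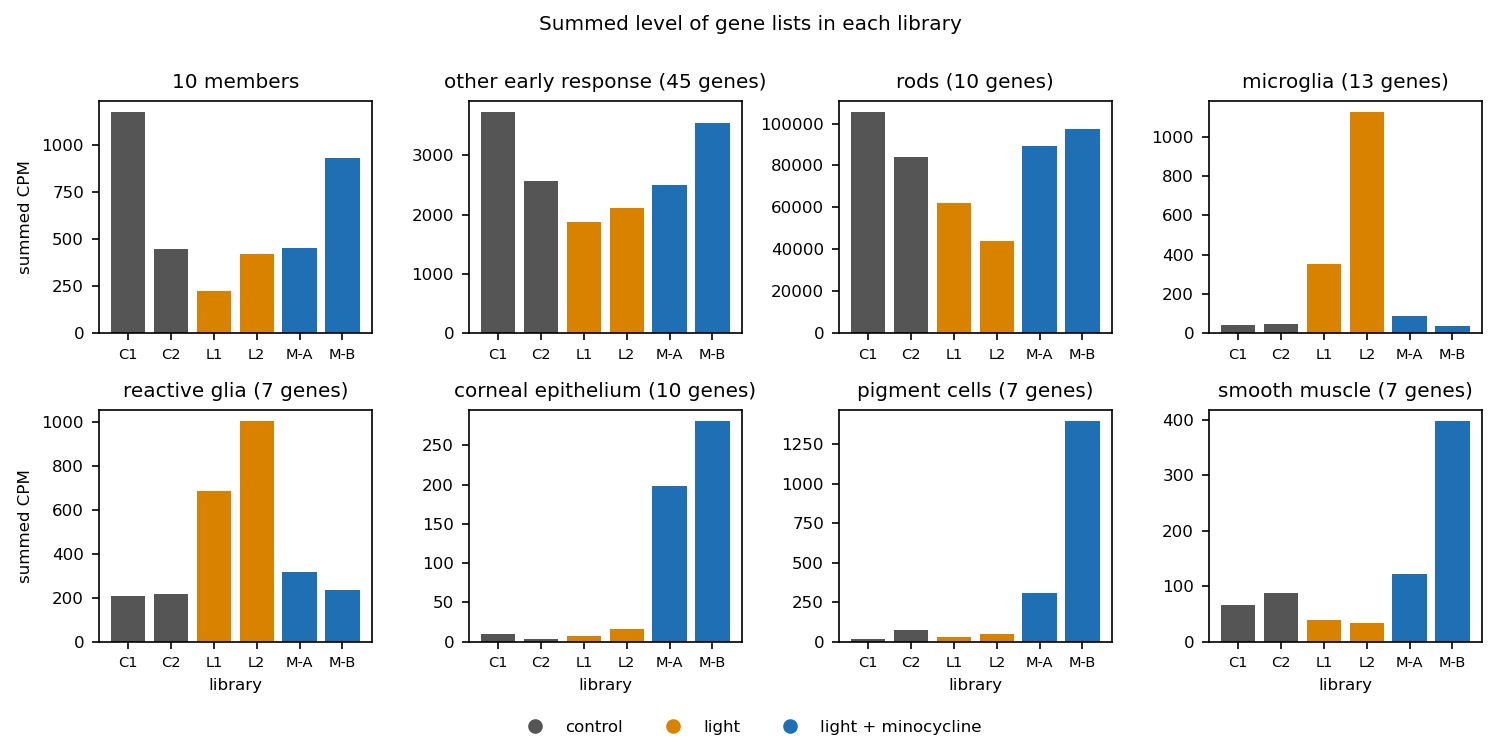
Summed CPM of the 10 members, of 45 other early response genes and of 6 marker lists in each library, as bars from 0 with a separate linear axis per panel. Members and other early response genes are highest in control 1 (1173 and 3731 CPM) and lowest in light-exposed 1 (221 and 1867 CPM), and pigment cell markers reach 1400 CPM in minocycline B.

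Other subunits that form or restrain AP-1 dimers were listed for comparison, and 11 of 14 were tested. None was called in any of the 3 comparisons by edgeR, where 2 were higher and 3 lower at an unadjusted p under 0.05 with light (16.5% and 12.4% of all genes), and 3 higher and 2 lower with minocycline against light (9.04% and 12.1%). DESeq2 called Maff and Atf4 lower with light (5.25% of all genes) and Atf4 higher with minocycline against light (3.16%). Their median log2 fold change with light was -0.24. Fosb, an early Fos relative, had 674 and 169 counts in control 1 and 2, 99 and 115 after light, and 253 and 883 with minocycline. Its log2 fold change with minocycline against light was 2.38 ± 0.71 (adjusted p = 0.154). Maff, a small Maf protein without activation domain, was at -0.78 with light (adjusted p = 0.0643), and Atf4, the effector of the integrated stress response, at -0.51 (adjusted p = 0.0763) and then 0.68 with minocycline against light (adjusted p = 0.0905). Mafg and Jdp2 did not pass the test with light, nor did Jund with minocycline.

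Of 43 other early response genes tested with light against control, 2 were called higher and 3 lower, beside 7.52% and 3.8% of all genes, and their median log2 fold change was -0.27. Tnfaip3, the deubiquitinase A20 that limits NF-κB signalling, fell from 7411 and 5241 counts to 3830 and 3274 counts (log2 fold change -1.24, adjusted p = 0.0157). Sgk1, a kinase induced by glucocorticoids, and Trib1, a pseudokinase, fell by 0.74 and 0.70 on the log2 scale (adjusted p = 0.0323 and 0.0352). Dusp6, a phosphatase that acts on ERK, rose by 0.96 (adjusted p = 0.0263), and the stress gene Gadd45b, named after its values were seen, rose by 0.85 (adjusted p = 0.0376). These 5 calls were lost without control 1, control 2 or light-exposed 2, in fits that called few of all genes, as given for Atf3. Without light-exposed 1 the calls of Sgk1 and Trib1 were lost, but not those of Tnfaip3, Dusp6 and Gadd45b. With minocycline against light, none of 44 was called by edgeR, whereas 14 were higher and 3 lower at an unadjusted p under 0.05 (9.04% and 12.1% of all genes) and DESeq2 called 9 higher and 1 lower (3.16% and 5.01% of all genes). Dusp1, the phosphatase that shuts off stress kinases, had 1.47 (adjusted p = 0.0698), the pluripotency factor Klf4 had 2.75 (adjusted p = 0.0861), Ier2 had 0.81 (adjusted p = 0.0926) and Dusp6 had -0.98 (adjusted p = 0.0845) on the log2 scale. Klf4 was at 9.27 and 24.4 CPM in minocycline A and B, against 1.75 to 6.33 CPM elsewhere. These libraries also held most corneal epithelium markers, and a link to Klf4 was not tested.

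Family members and partners of Cebpb, Egr1 and Myc were examined in the same way. Cebpa, the C/EBP of myeloid cells and hepatocytes, was the single gene of 5 tested C/EBP relatives that edgeR called with light and rose from 9 and 11 counts to 128 and 425 counts (log2 fold change 4.28, adjusted p = 0.00963). It stood at 32 and 16 counts with minocycline (-3.59 against light, adjusted p = 0.0698). Ddit3, the stress-induced CHOP, missed the threshold with light (adjusted p = 0.0535). DESeq2 called Cebpa higher and Ddit3 lower with light, beside 7.68% and 5.25% of all genes. For minocycline against light, edgeR called none of the 5, with 1 higher and 2 lower at an unadjusted p under 0.05 (9.04% and 12.1% of all genes), and DESeq2 called Ddit3 higher and Cebpa and Cebpd lower (3.16% and 5.01%). Nab2, a corepressor that binds EGR proteins, rose from 96 and 82 to 322 and 474 counts (1.72, adjusted p = 0.00735), and Nab1 was not called. Leaving out either control ended both calls, and leaving out light-exposed 2 ended that of Nab2. Those fits called few of all genes, as given for Atf3. For minocycline against light Nab2 had -1.17 (adjusted p = 0.0709) and was not called by edgeR, while DESeq2 called 1 of the 2 corepressors lower (5.01% of all genes), as did edgeR without light-exposed 1 or without minocycline A. None of 10 tested partners and relatives of MYC was called by edgeR in any comparison, although 3 were higher and 2 lower at an unadjusted p under 0.05 with light (16.5% and 12.4% of all genes) and DESeq2 called Mga lower (5.25%). For minocycline against light, 1 was higher and 1 lower at an unadjusted p under 0.05 (9.04% and 12.1%), and DESeq2 called Mlxip lower (5.01%). Mycn had a log2 fold change of 1.03 with light (adjusted p = 0.106).

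Upstream of the members, 25 kinases and transcription factors of MAP kinase, serum response factor, CREB and STAT3 signalling were tested, and 4 were called higher and 3 lower with light, beside 7.52% and 3.8% of all genes. Map3k8, a kinase of inflammatory signalling, rose by 1.89 on the log2 scale (adjusted p = 0.0213), and Map3k5, the stress kinase ASK1, by 0.97 (adjusted p = 0.0363). Creb1, which binds the CRE, fell by 0.72 (adjusted p = 0.0163), and the p38 isoform Mapk11 fell by 0.68 (adjusted p = 0.0320). These calls with light were lost when either control or light-exposed 2 was left out. Those fits called few of all genes, as given for Atf3, so the loss is no result about these genes. Without light-exposed 1 the lower calls were lost as well. With minocycline against light edgeR called none of the 25, with 3 higher and 5 lower at an unadjusted p under 0.05 (9.04% and 12.1% of all genes), and DESeq2 called Stat3 lower (5.01%).

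Genes known in other settings as AP-1 targets were listed too. Of 20 tested, 10 were called higher with light and none lower, against 7.52% called higher over all genes. Of these, 4 (Timp1, Mmp12, Plaur and Ccl2, the last 2 named after their values were seen) passed the filter on low counts through the light-exposed libraries alone, so the count is no support for a direction of the list. Among the 16 that passed in both groups, 6 were called higher. The count of 10 fell when either control or light-exposed 2 was left out, but so did the count over all genes, as given for Atf3. Timp1, an inhibitor of matrix metalloproteinases, rose from 4 and 5 counts to 145 and 138 counts (4.53, adjusted p = 0.00134). The macrophage elastase Mmp12 had 0 counts in both controls and 51 and 73 counts after light (adjusted p = 0.00348). Mt1, a metallothionein, rose by 2.09 on the log2 scale (adjusted p = 0.00899), and the hyaluronan receptor Cd44 rose from 348 and 234 to 842 and 1414 counts (adjusted p = 0.0108). Compared with light alone, Timp1 fell by 3.74 on the log2 scale with minocycline (adjusted p = 0.0444), to 12 and 11 counts. It was the single target called by edgeR, while DESeq2 called 7 lower and 1 higher (5.01% and 3.16% of all genes). At an unadjusted p under 0.05, 11 targets were lower and 1 higher (12.1% and 9.04% of all genes). The edgeR count changed when 1 library was left out. Minocycline against control called Spp1, the secreted osteopontin, higher (1.97, adjusted p = 0.0437). This call was lost when any 1 library of these groups was left out. Those fits also held the light-exposed libraries, where Spp1 had 6281 and 35124 counts, so the loss cannot be assigned to the library left out. Several of these genes are also expressed by microglia, macrophages and reactive glia, whose markers are given above.

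The genes most like Myc and Fosl1 across the 6 libraries were sought among 11164 genes with a mean of at least 100 counts, by Pearson's r of log2 CPM. For Myc these were Lipa (r = 0.993), the lysosomal acid lipase, Colec12 (r = 0.991), a scavenger receptor, and Ghr (r = 0.990), the growth hormone receptor. Lipa had 92 and 93 counts in the controls, 405 and 1400 after light, and 322 and 409 with minocycline. For Fosl1 they were Mlxip (r = 0.994), Itfg3 (r = 0.990) and Parp10 (r = 0.990). Each r describes 6 points that share library and depth, and the best matches of many genes are high by selection.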

How the data were processed

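The 6 libraries hold 2 biological replicates of control, light-exposed and minocycline-treated light-exposed retinas. The authors prepared stranded mRNA libraries, aligned reads to mm10 (GRCm38) with STAR, and deposited counts per gene, which are whole numbers without scaling although the data statement calls them normalized. Versions and the use of strand in counting are not given in the sources used here. Both minocycline columns share a header and are named A and B. No value column was left unused (0).

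Each pair of groups was fitted on its own in R 4.3.3 with edgeR 4.0.16, using filterByExpr (minimum count 10), TMM, a robust quasi-likelihood test, Benjamini-Hochberg adjustment over all tested genes, and a call at an adjusted p under 0.05. In place of the study's DESeq2, DESeq2 1.42.0 was an alternative, as was a log2 fold cutoff of 2. Fits with 1 library left out held all remaining libraries of the 3 groups. On simulated counts the scripts were checked. Gene symbols matched the annotation directly (21772) or by synonym (1259 of 23420). Members and lists were chosen with earlier results of these data known. Related genes were named by smallest adjusted p (4 per list and comparison). Some genes that this rule names are not reported here. Exact intervals cover counting error only. Of 18 lists, 7 held related genes and 11 cell type markers. Replicate counts differed beyond sampling noise.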

Additional observations from a re-analysis of the deposited data

How the results depend on the processing

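Of 384 log2 fold changes of members recomputed under other settings, 359 kept their direction and 25 turned, 23 of them with a library left out. The other 2 were Cebpb with light under total library size (0.12, a scaling that moved the median of all genes from 0.00 to 0.24) and Egr2 with minocycline against control with all 6 libraries in one fit (-0.027). With 1 library left out, values that turned ranged, for light against control, from -0.35 to 0.60 (Fosl2), -1.03 to 0.87 (Egr2) and -1.13 to 0.77 (Cebpb). For minocycline against light the ranges were -0.39 to 0.66 (Fosl2), -0.73 to 1.00 (Egr2) and -0.76 to 0.80 (Cebpb). For minocycline against control they were -1.31 to 0.47 (Fos), -1.07 to 0.091 (Fosl1), -0.27 to 0.78 (Fosl2), -0.89 to 0.78 (Jun), -0.63 to 0.78 (Junb), -0.12 to 1.35 (Atf3), -0.90 to 0.66 (Egr1), -1.10 to 1.21 (Egr2) and -0.89 to 0.59 (Cebpb). None of these turned values had been called.

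The count of members called higher with light was 1, and 0 with DESeq2, at least 10 counts in every library (Myc was then not tested) or an adjusted p under 0.01, and 2 without a filter. The count called lower was 1, and 0 with DESeq2 size factors, total library size, all 6 libraries in one fit, a fold cutoff or an adjusted p under 0.01. With minocycline against light, 3 were called higher with DESeq2 and 1 lower without a filter. With 1 library left out the counts ranged from 0 to 1 with light (higher) and were 0 (lower), and ranged from 0 to 1 in either direction with minocycline against light. Unlike the main fits, these held the remaining libraries of all 3 groups, and the lone library was assumed to vary like the other groups. The cause of these changes was not tested.

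Control and light libraries share replicate numbers, which no source ties to a litter or day, and their deviations did not correlate (r = -0.0074 over 14349 genes). With the replicate block, 2 members were called higher with light (Myc and Fosl1) and 1 lower. For the comparisons with minocycline, no paired analysis was run. The minocycline samples are numbered in the labels, but the columns of the count table share a header and could not be tied to these numbers.

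Fosl1, Egr2 and Myc rest on few counts, and groups of 2 libraries allow no test for outlying samples. Reads were not analysed here.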
